A study of Mus musculus with 62 samples.

Results

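The endogenous opioid genes followed here are the 4 peptide precursors Penk, Pdyn, Pomc and Pnoc and the 4 opioid receptors Oprm1, Oprd1, Oprk1 and Oprl1. They were taken by gene name from the deposited gene count matrix, which lists 56415 genes, and all 8 were found. The matrix places them on GRCm39 at chr4:4133531-4138819 (Penk, minus strand), chr2:129528485-129541753 (Pdyn, minus strand), chr12:4004951-4010573 (Pomc, plus strand), chr14:65638122-65662921 (Pnoc, minus strand), chr10:6708506-6987201 (Oprm1, plus strand), chr4:131838037-131871797 (Oprd1, minus strand), chr1:5658689-5676354 (Oprk1, plus strand) and chr2:181356809-181362778 (Oprl1, plus strand). Adult male C57BL/6J mice, 8 to 10 weeks old, received intraperitoneal ethanol at 2 g/kg or an equal volume of saline, given 1 time (acute) or on each of 10 days (chronic). Tissue was taken 4 h after the final dose. Polyadenylated RNA from punches of frozen tissue gave 62 libraries from 16 mice, with 3 or 4 libraries in each of 20 groups: 12 from cortex (CTX), 13 from dorsal hippocampus (dHPC), 12 from ventral hippocampus (vHPC), 13 from dorsal striatum (DS) and 12 from ventral striatum (VS). No genotype, transgene or surgery separated the groups. Several mice gave tissue to more than 1 region, so results in different regions are not from independent animals, whereas every mouse belonged to a single treatment and paradigm.

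Opioid peptides are cut from large precursor proteins and act on G protein-coupled receptors that inhibit adenylyl cyclase, open potassium channels and lower transmitter release. Penk encodes proenkephalin, the source of enkephalins, which act mainly on the delta receptor (Oprd1) and the mu receptor (Oprm1). Pdyn encodes prodynorphin, whose dynorphins act mainly on the kappa receptor (Oprk1). Pomc encodes the precursor of beta-endorphin and of melanocortins, and Pnoc encodes the precursor of nociceptin, the ligand of Oprl1. In the striatum, Penk is a classical product of the indirect pathway projection neurons and Pdyn of the direct pathway projection neurons. Mu receptors are linked with reward and kappa receptors with aversive states, and both are long-standing subjects of alcohol research.

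Total gene counts ran from 8149628 to 71164766 per library, with region medians of 51703961 in CTX and 48892266 in dHPC against 13091491 to 14530176 in the others. CTX and dHPC were prepared with a kit that does not keep strand and sequenced in 1 batch, while vHPC, DS and VS were prepared with a stranded kit and sequenced in another, so the region and the batch cannot be told apart between these 2 sets and no test was made across them. The region labels followed 2 sets of markers in most libraries, although vHPC acute saline replicate 6 had only 110 CPM of dentate markers. These sets overlap between DS and VS and do not separate them. The summed level of 10 striatal projection neuron markers was 5225 to 10265 CPM (counts scaled to library size with TMM factors within a region) in DS and 2980 to 6481 in VS, against 579 to 727 in CTX, and that of 6 dentate granule neuron markers was 288 to 687 in dHPC and 110 to 804 in vHPC, against at most 115 elsewhere. Of the libraries that stood apart, 3 hippocampal ones carried far more of the striatal markers than the rest of their region: dHPC chronic saline replicate 5 held 3437 CPM, 4.42 times the median of the other dHPC libraries, vHPC chronic ethanol replicate 5 held 1974 and vHPC acute ethanol replicate 4 held 1578. DS chronic saline replicate 2 was listed at 0 for every gene of chromosomes 7, 8, 9, X, Y and MT and for most genes of chromosome 6. No opioid gene lies on these chromosomes, but some marker genes do. The marker sums of this library, such as its 5225 CPM of striatal projection neuron markers, are therefore too low. VS chronic saline replicates 3 and 6 held 8.84 and 10.8 CPM of hypothalamic neuron markers. The DS libraries held 3.75 to 7.95 CPM and the other VS libraries 26.3 to 74.7. Both replicates enter the DS against VS and the VS chronic comparisons. Each was left out in turn, as given below, but not both together. In tissue punches, fewer cells of a type and less RNA per cell cannot be told apart.

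The genes differed widely in level and in where they were expressed. Levels between genes are given per kilobase of exon (CPM per kb), and levels of a single gene as CPM, scaled within each region. Penk, in DS, had a median of 692 CPM per kb over 13 libraries, far above Pdyn at 27.2, Oprd1 at 6.54, Oprl1 at 6.12, Oprk1 at 3.08, Pnoc at 1.25, Pomc at 0.623 and Oprm1 at 0.399. In CTX the order was Penk at 23.8 CPM per kb, Oprl1 at 9.90, Pdyn at 7.15, Oprd1 at 5.55, Pnoc at 2.16, Pomc at 0.670, Oprm1 at 0.376 and Oprk1 at 0.357. Penk was thus the most abundant opioid transcript per length in both. In DS the precursors Penk and Pdyn stood above all 4 receptors, and in CTX Oprl1 stood above Pdyn. Pomc rested on 4 to 80 counts per library, too few to resolve small differences.

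**Figure D1:**
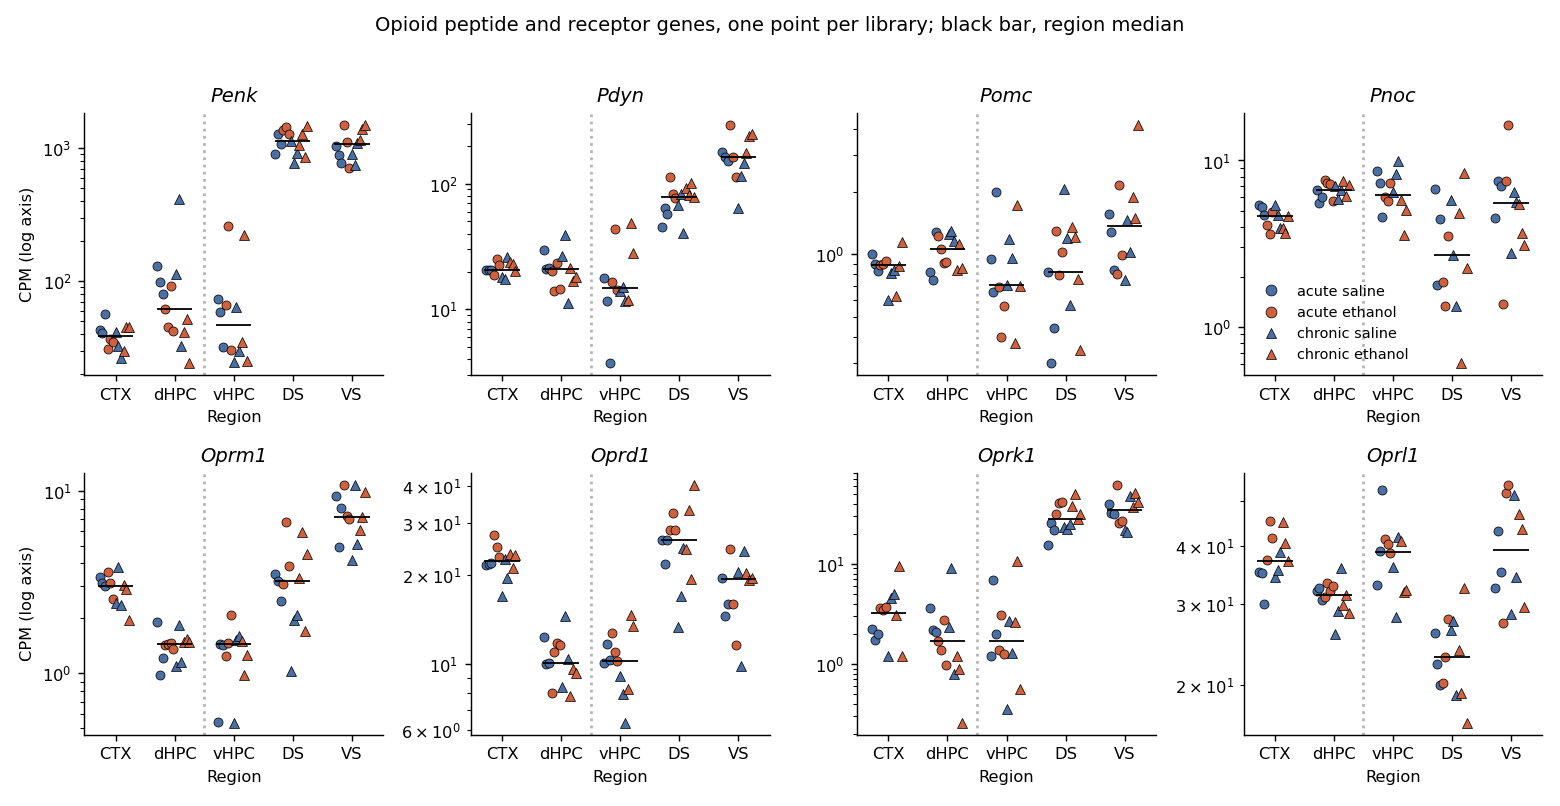
Level of each opioid gene in CPM (log axis) in all libraries of the 5 regions. Each point is a library, circles are acute and triangles chronic, blue is saline and orange ethanol, and the black bar is the region's median; the dotted line separates the 2 batches, across which no test was made. Penk, Pdyn and Oprk1 are highest in DS and VS, with 3 high Penk points in the hippocampus at 415, 262 and 225 CPM.

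Among the precursors in saline mice, Penk averaged 1018 ± 186 CPM in DS and 911 ± 141 in VS, against 47.3 ± 20.8 in vHPC (SD, n = 6 each). In the same batch and with the mouse as a block, Penk was higher in DS than in vHPC in 6 of 6 mice, by 4.50 ± 0.34 on the log2 scale (SE; 22.6-fold; edgeR quasi-likelihood test, Benjamini-Hochberg FDR = 0.00100). It was also higher in VS than in vHPC, in 5 of 5 mice with both, by 4.20 ± 0.21 (18.4-fold; FDR = 1.76e-06 in edgeR). DS and VS themselves did not differ beyond the spread between mice in Penk (log2 difference -0.10 ± 0.12; edgeR FDR = 0.701). Pdyn had a different order, with 137 ± 42.0 CPM in VS, 59.8 ± 15.7 in DS and 12.3 ± 4.79 in vHPC. Its log2 difference was 1.22 ± 0.26 for VS over DS (2.32-fold, higher in 4 of 5 mice; edgeR FDR = 0.0230) and 2.33 ± 0.34 for DS over vHPC (6 of 6 mice; edgeR FDR = 0.00754). The exception among the 5 mice was chronic saline mouse 3, whose VS library held 63.5 CPM of Pdyn and whose DS library held 83.5, and without it the VS excess was 1.61 (edgeR FDR = 3.22e-05). Pnoc and Pomc did not pass the test in any of the 3 comparisons within this batch, although Pnoc was lower in DS than in vHPC in 6 of 6 mice (log2 difference -1.18 ± 0.45; FDR = 0.141 in edgeR and 0.0362 in DESeq2, which called 33.6% of all genes). In the CTX and dHPC batch, where 4 mice gave both regions and 4 gave only 1 of them, Penk was higher in dHPC in 4 of 4 mice (log2 difference 1.64 ± 0.45; edgeR FDR = 0.0203). Without dHPC chronic saline replicate 5 this difference was 1.04 ± 0.19 (edgeR FDR = 0.00319). With all libraries, 7 of the 10 striatal projection neuron markers were called higher in dHPC than in CTX and 1 lower, with a median of 1.08, and their part in the Penk difference was not tested.

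Among the receptors, Oprk1 averaged 32.4 ± 10.2 CPM in VS and 22.2 ± 3.55 in DS but 2.40 ± 2.33 in vHPC (SD, n = 6). It exceeded vHPC by 3.58 ± 0.53 on the log2 scale in DS (12.0-fold, 6 of 6 mice; edgeR FDR = 0.00761) and by 3.68 ± 0.39 in VS (12.8-fold, 5 of 5 mice; edgeR FDR = 0.000115). Oprm1 had its highest mean in VS, with 7.06 ± 2.69 CPM in VS against 2.38 ± 0.899 in DS and 1.18 ± 0.501 in vHPC. It was higher in VS than in DS in 5 of 5 mice by 1.19 ± 0.21 (2.28-fold; edgeR FDR = 0.00817). Oprd1 stood at 21.5 ± 5.36 CPM in DS, 17.4 ± 5.03 in VS and 9.24 ± 1.91 in vHPC, and passed for both striatal regions over vHPC but not between DS and VS (log2 difference -0.33 ± 0.14; edgeR FDR = 0.194). Oprl1 was the most even, from 23.5 ± 3.56 CPM in DS to 38.5 ± 8.48 in vHPC, and was called lower in DS than in vHPC (-0.73 ± 0.20, 6 of 6 mice; edgeR FDR = 0.0529) and higher in VS than in DS (0.56 ± 0.13, 5 of 5 mice; edgeR FDR = 0.0271). In CTX against dHPC, Oprm1 was lower in dHPC (log2 difference -1.18 ± 0.17; edgeR FDR = 0.000928), as was Oprd1 (-0.92 ± 0.09; edgeR FDR = 8.82e-05), each in 4 of 4 mice, while Oprl1 differed by -0.21 ± 0.06 (edgeR FDR = 0.0183).

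Regional differences of this kind were common over the transcriptome, so the counts of members are read against it. In CTX against dHPC 5 of 8 opioid genes were called (FDR below 0.1) beside 45.7% of all genes tested, in vHPC against DS 5 of 8 beside 21.9%, in vHPC against VS 5 of 8 beside 35.1%, and in DS against VS 4 of 8 beside 9.70%. The vHPC against DS test includes DS chronic saline replicate 2, which lacked whole chromosomes, and the share without it is not given. In DESeq2 that test called 5 of 8 opioid genes higher in DS and 2 lower, beside 33.6% of all genes. Some of the edgeR calls turned on single mice. Pnoc, called higher in dHPC than in CTX at an edgeR FDR of 0.0904 (log2 difference 0.31 ± 0.13), was no longer called without either library of acute saline mouse 2 (0.163 or more), chronic saline mouse 5 (0.134 or more) or chronic saline mouse 6 (0.268 or more). Oprl1 in vHPC against DS lost its call without acute saline mouse 4 (0.141 or more), acute saline mouse 6 (0.118 or more) or chronic saline mouse 6 (0.143). Oprk1 in DS against VS (log2 difference 0.59 ± 0.16; FDR = 0.0553 in edgeR) lost it without acute saline mouse 2 (0.120 or more), acute saline mouse 6 (0.134 or more) or chronic saline mouse 6 (0.180 or more), and Oprl1 in the same comparison without acute saline mouse 6 (0.115 or more) or VS chronic saline replicate 6 (0.101). Without chronic saline mouse 6, Oprk1 became called in CTX against dHPC (0.64 ± 0.17 on the log2 scale without its CTX library, edgeR FDR = 0.0205, against -0.04 ± 0.50 with it), and so did Pdyn (0.53 ± 0.18, edgeR FDR = 0.0594, against 0.11 ± 0.31).

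To ask whether ethanol changed these genes, each treated group was compared with the saline group of the same region and paradigm. Over 10 such comparisons, 5 of 80 gene tests passed, all after acute exposure: Oprk1 rose in CTX and DS, Pdyn and Penk rose in DS, and Penk fell in CTX. The other 8 comparisons called no opioid gene in edgeR. The share of all genes called in them was 0.0420% in dHPC acute, 0.0399% in VS acute, 0.0555% in vHPC chronic and 0% in the other 5. Groups of no opioid gene were free of overlap in dHPC acute (8.25% of all genes), vHPC acute (17.9%), VS acute (12.3%) and CTX chronic (18.0%). All 8 genes passed the filter on low counts (at least 5 counts in at least 2 libraries of a group) in all of them.

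The dorsal striatum after a single dose held the most opioid calls. Depth was uneven there, with 46564992 total counts in acute ethanol replicate 5 against 9689502 to 15342254 in the other acute DS libraries. Oprk1, the kappa receptor, was at 15.5, 25.4 and 21.9 CPM in acute saline replicates 2, 4 and 6, and at 31.6, 40.1 and 41.7 CPM in acute ethanol replicates 3, 4 and 5. The groups did not overlap, and the log2 fold change was 0.85 ± 0.16 (1.80-fold; edgeR FDR = 0.00854). Pdyn, the precursor of its ligands, was at 45.4, 63.9 and 57.7 CPM in the saline mice and at 113, 82.3 and 76.7 CPM in the ethanol mice. All 3 ethanol libraries lay above all 3 saline libraries here too, and the log2 fold change was 0.69 ± 0.14 (1.61-fold; edgeR FDR = 0.0160). Penk was at 902, 1287 and 1087 CPM in saline mice and at 1382, 1451 and 1293 CPM in ethanol mice. The gap between these groups was narrow, 1287 against 1293 CPM, and the log2 fold change was 0.33 ± 0.10 (1.26-fold; edgeR FDR = 0.0970).

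The remaining genes of DS after acute ethanol did not pass. Oprd1, the main receptor for enkephalins, was at 21.8 to 26.3 CPM in saline and 28.4 to 32.3 in ethanol libraries without overlap, with a log2 fold change of 0.26 ± 0.11 (edgeR FDR = 0.270). Oprm1 changed by 0.58 ± 0.32, Pomc by 1.03 ± 0.58, Pnoc by -0.86 ± 0.45 and Oprl1 by 0.08 ± 0.14, and the groups overlapped for each. The 3 of 8 called, all higher, stood beside 5.15% of all genes tested called in either direction and 2.05% called higher, and the 4 of 8 without overlap beside 21.3%. The median log2 fold change was 0.46 over the 8 genes and 0.00 over all genes. Pdyn and Oprk1 stayed called whichever of the 6 libraries was left out, with an FDR of at most 0.0737 and 0.0527. Penk lost its call without saline replicate 2 (FDR = 0.242), saline replicate 6 (0.214) or ethanol replicates 3 (0.179), 4 (0.280) or 5 (0.145). With all 4 DS groups in 1 fit, no opioid gene passed (edgeR FDR = 0.467 for Oprk1, 0.643 for Pdyn and 0.992 for Penk). That fit takes its spread also from the chronic mice, among them DS chronic saline replicate 2, which lacked whole chromosomes. A test on the same 4 groups of whether the acute and chronic effects differ called 0 of 21120 genes (smallest edgeR FDR = 0.999). This is another contrast than the acute effect, for which the share of all genes called in the fit of 4 groups is not given. The opioid calls in DS therefore rest on the fit to the acute libraries alone.

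Markers of other neurons moved in the same libraries. The summed level of 9 markers of pallial excitatory neurons, such as Slc17a7 and Neurod6, which the striatum itself largely lacks, was 613 to 723 CPM in DS acute saline and 165 to 273 in DS acute ethanol, with 8 of 9 called lower and 1 higher and a median log2 fold change of -3.20. The 10 striatal projection neuron markers summed to 7000 to 8003 CPM in saline and 8965 to 9271 in ethanol libraries, with 7 of 10 called higher and a median of 0.28. The 5 indirect pathway markers had a median of 0.22 with 3 called higher, and the 5 direct pathway markers a median of 0.30 with 1 called higher. The 8 choroid plexus markers had a median of 1.69 with 2 called higher. The log2 fold changes of Oprk1 (0.85) and Pdyn (0.69) were larger than the medians of the 3 striatal lists, and that of Penk (0.33) was close to them. Per unit of the summed striatal markers, Penk was 0.147 ± 0.0167 in saline and 0.151 ± 0.0105 in ethanol mice, Pdyn 0.00753 ± 0.000908 and 0.00990 ± 0.00199, and Oprk1 0.00282 ± 0.000527 and 0.00415 ± 0.000638 (SD, n = 3 each). The part of tissue composition in the called changes was not tested.

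In the cortex after a single dose, a receptor and a precursor moved in opposite directions. Oprk1 was at 2.22, 1.72 and 1.99 CPM in acute saline replicates 2, 4 and 6 and at 3.65, 3.44 and 3.73 CPM in acute ethanol replicates 2, 4 and 5. The groups stood well apart, with a log2 fold change of 0.87 ± 0.15 (1.83-fold; edgeR FDR = 0.0240), on 96 to 232 counts per library. Penk was at 43.2, 41.2 and 56.9 CPM in saline and at 30.8, 36.6 and 35.2 CPM in ethanol mice, lower in each ethanol library than in any saline library. Its log2 fold change was -0.46 ± 0.11 (0.727 times the saline level; edgeR FDR = 0.0696). Oprl1, the nociceptin receptor, was at 35.1, 34.9 and 29.9 CPM in saline and at 37.3, 45.2 and 41.6 in ethanol mice, and was past the threshold in DESeq2 (FDR = 0.0217, beside 3.69% of all genes) but not in edgeR (log2 fold change 0.31 ± 0.08; FDR = 0.114). Oprd1 did not overlap between the groups either (log2 fold change 0.21 ± 0.08; edgeR FDR = 0.279). Pdyn (0.11 ± 0.10), Pomc (-0.00 ± 0.23), Pnoc (-0.28 ± 0.14) and Oprm1 (-0.04 ± 0.16) did not pass.

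The 2 of 8 called in CTX stood beside 1.99% of all genes tested, and the 4 of 8 without overlap beside 17.7%. Oprk1 lost its call without saline replicate 4 (edgeR FDR = 0.109) or ethanol replicate 4 (0.111). Penk lost it without saline replicate 6 (0.130; log2 fold change -0.30) or ethanol replicates 2 (0.130), 4 (0.188) or 5 (0.185), and neither gene passed with all 4 CTX groups in 1 fit (edgeR FDR = 0.799 for Oprk1 and 0.615 for Penk). In the chronic CTX libraries Oprk1 ranged from 1.20 to 4.95 CPM in saline and from 1.19 to 9.56 in ethanol mice, a spread wider than the acute difference. The 5 indirect pathway markers had a median log2 fold change of -0.53 in CTX after acute ethanol, with none called, and summed to 20.8 to 32.7 CPM in saline and 21.2 to 23.8 in ethanol libraries. The value of 32.7 CPM belonged to saline replicate 6, the library with the highest Penk. It also held 128 CPM of choroid plexus markers, against 6.36 to 29.9 in the other acute CTX libraries. The 10 striatal projection neuron markers had a median of -0.10 with 2 called lower, and the 7 claustrum and deep layer markers a median of 0.00 with 1 called lower; their part in the result was not tested. Exons of Penk and Oprm1 overlap those of A830012C17Rik and Ipcef1 on the opposite strand in a later annotation of the same genome build, and in CTX and dHPC, whose kit does not keep strand, reads from such pairs cannot be told apart.

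**Figure D2:**
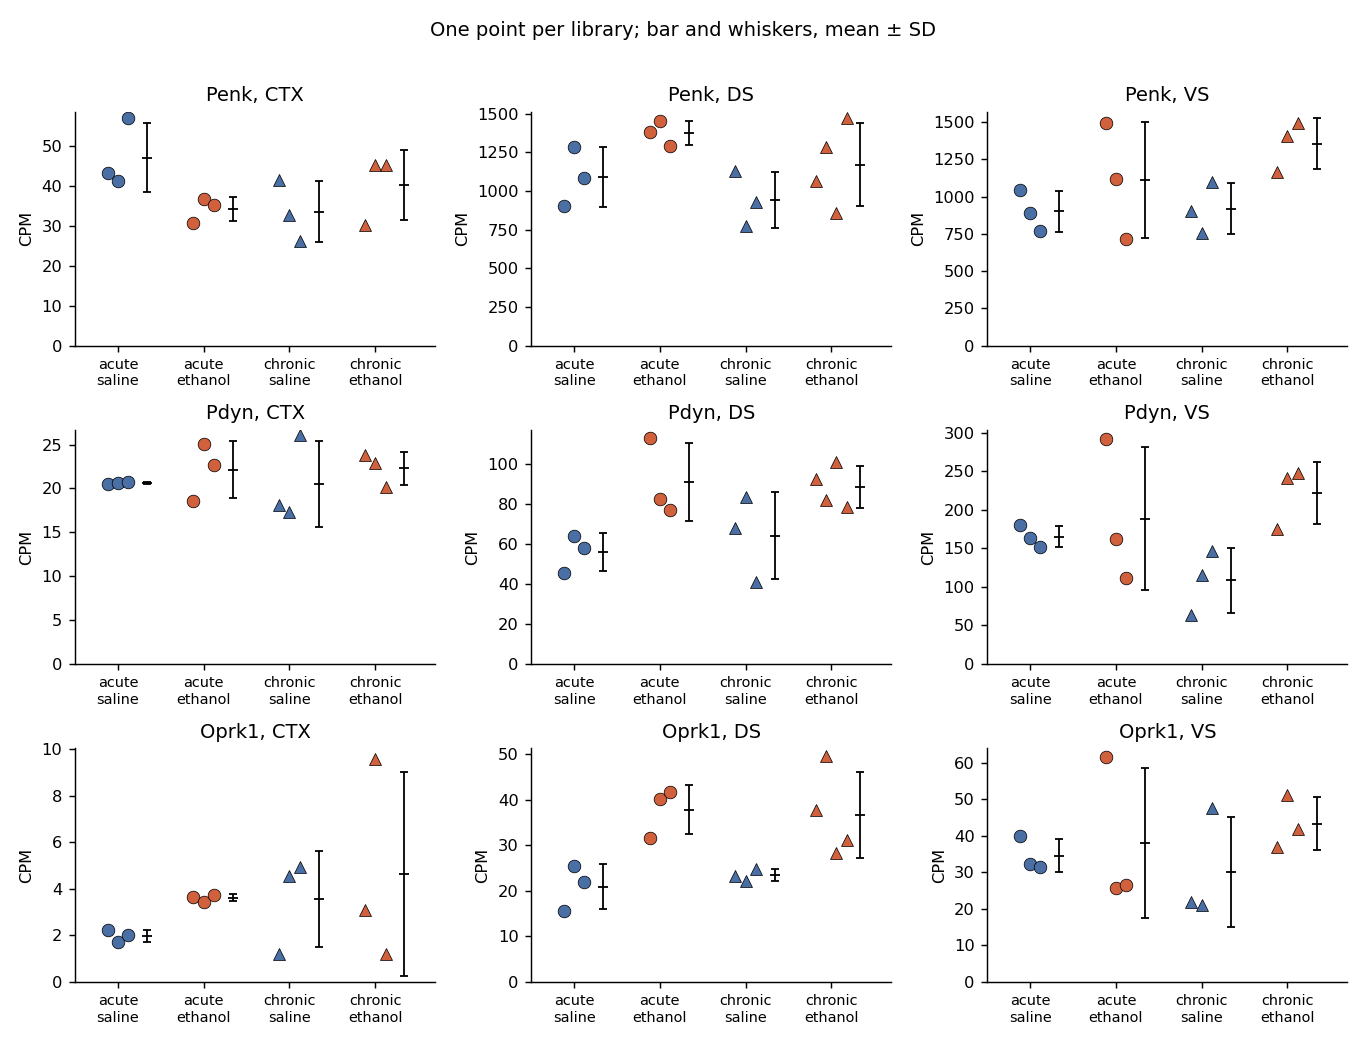
Penk, Pdyn and Oprk1 in CPM in CTX, DS and VS, with each library as a point and the mean ± SD beside it; vertical axes start at 0. In DS the acute ethanol libraries lie above the acute saline libraries for all 3 genes, in CTX they lie above for Oprk1 and below for Penk, and in VS the chronic ethanol libraries lie above the chronic saline libraries for Penk and Pdyn.

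After chronic ethanol the ventral striatum came closest to a call. Penk was at 905, 755 and 1102 CPM in VS chronic saline replicates 3, 5 and 6 and at 1163, 1408 and 1494 CPM in chronic ethanol replicates 1, 4 and 6. No ethanol library fell within the saline range, and the log2 fold change was 0.56 ± 0.15 (1.47-fold), which passed in DESeq2 (FDR = 0.0252) but not in edgeR (FDR = 0.313). Pdyn was at 63.5, 115 and 147 CPM in saline and at 175, 241 and 248 CPM in ethanol mice. These groups did not overlap either, with a log2 fold change of 1.03 ± 0.27 (2.04-fold; FDR = 0.312 in edgeR and 0.142 in DESeq2). Without saline replicate 3 the log2 fold change was 0.75 ± 0.18 for Pdyn and 0.54 ± 0.18 for Penk. Without saline replicate 6 it was 1.31 ± 0.25 and 0.71 ± 0.14, and edgeR called neither gene in these fits. Pomc did not overlap between the groups but rested on 12 to 62 counts per library, and the 3 of 8 without overlap stood beside 16.1% of all genes. The call in DESeq2 was 1 of 8 beside 1.79% of all genes. Beside these, the pallial excitatory markers summed to 173 to 1005 CPM in saline and 149 to 242 in ethanol libraries (median log2 fold change -3.16), while the striatal projection neuron markers summed to 3675 to 6481 and 5719 to 6057 CPM (median 0.04). The 5 indirect pathway markers summed to 333 to 584 CPM in saline and 560 to 618 in ethanol libraries, and the 5 direct pathway markers to 301 to 426 and 447 to 457. Hypothalamic neuron markers summed to 8.84 to 31.1 and 47.6 to 48.6 CPM, and choroid plexus markers to 25.6 to 3031 and 35.7 to 42.0. The direct pathway and hypothalamic sums, like Penk and Pdyn, did not overlap between the groups, and the part of these markers in the result was not tested.

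In DS after chronic ethanol no opioid gene passed in either tool. Oprk1 was at 23.3, 22.2 and 24.8 CPM in saline replicates 2, 3 and 6 and at 37.8, 49.6, 28.2 and 31.1 CPM in ethanol replicates 1, 4, 5 and 6, without overlap (1 of 8 genes, beside 8.77% of all genes), with a log2 fold change of 0.65 ± 0.21 (FDR = 0.969 in edgeR and 0.226 in DESeq2). Pdyn was at 40.6 to 83.5 CPM in saline and 78.4 to 101 in ethanol mice (0.46 ± 0.25), and Penk at 772 to 1131 and 856 to 1474 CPM (0.31 ± 0.23). Oprm1 showed the largest estimate of the 8, 1.18 ± 0.50, with overlapping groups. Without DS chronic saline replicate 2, the library that lacked whole chromosomes, none of the 8 was called in edgeR or DESeq2 either. Pallial excitatory markers summed to 284 to 866 CPM in saline and 145 to 308 in ethanol libraries. Striatal projection neuron markers summed to 5225 to 7382 and 6692 to 10265 CPM. Per unit of the latter, Oprk1 was 0.00401 ± 0.000579 in saline and 0.00439 ± 0.00103 in ethanol mice (SD). Saline replicate 2 enters these values with some markers at 0, and the part of the markers was not tested. The paradigms were also compared directly, and edgeR called none of the 8 genes for a difference between the acute and the chronic effect in any of 5 regions. The share called over all genes was 0% in each region, so this test cannot show that the effects were alike. DESeq2 called none either, but gave no adjusted p for 5 of the 8 genes in vHPC. At an unadjusted p below 0.05 in edgeR, 1 gene passed, Penk in CTX, with an interaction of 0.73 ± 0.25 on the log2 scale (edgeR FDR = 0.600).

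The hippocampus gave large but unstable estimates. In dHPC after chronic ethanol, Penk was at 113, 415 and 32.6 CPM in saline replicates 2, 5 and 6 and at 41.6, 52.0 and 24.2 CPM in ethanol replicates 1, 4 and 6. A single saline library set the mean, and the log2 fold change of -2.24 ± 0.76 (edgeR FDR = 0.566) became -0.89 ± 0.46 without replicate 5. Oprk1 was at 2.34, 9.04 and 0.803 CPM in the same saline libraries and at 1.20, 0.883 and 0.258 in the ethanol libraries, and its log2 fold change of -2.33 ± 0.82 (edgeR FDR = 0.571) also shrank without that library, to an edgeR FDR of 0.987. Pomc was the 1 gene of 8 without overlap here, beside 13.9% of all genes (-0.39 ± 0.22; edgeR FDR = 0.670). The 5 indirect and 5 direct pathway markers had medians of -3.05 and -2.56 in the same comparison. In dHPC after acute ethanol, Penk was at 131, 99.2 and 80.6 CPM in saline and at 61.5, 45.6, 92.5 and 42.6 CPM in ethanol mice (-0.78 ± 0.24; edgeR FDR = 0.449), and it was called when ethanol replicate 4 was left out (-1.06 ± 0.18; edgeR FDR = 0.0750).

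In vHPC the same pattern appeared on the ethanol side. Penk was at 73.8, 59.1 and 32.2 CPM in acute saline and at 66.1, 262 and 30.4 CPM in acute ethanol mice. After chronic treatment it was at 24.6 to 64.1 CPM in saline and at 25.4 to 225 CPM in ethanol mice. In each paradigm 1 ethanol library stood far above the rest, and these were the libraries with the most striatal marker RNA. The log2 fold changes of 1.12 ± 0.67 and 1.27 ± 0.70 (edgeR FDR = 0.539 and 0.591) turned to -0.19 ± 0.39 and -0.38 ± 0.34 without them. Pdyn had 43.7 and 48.6 CPM in those 2 libraries, against 3.72 to 28.3 in the other vHPC libraries. The lowest value, 3.72 CPM, was in an acute saline library. Dentate granule neuron markers summed to 110 to 314 CPM in acute saline and 372 to 583 in acute ethanol libraries, without overlap. In chronic saline and chronic ethanol libraries they summed to 320 to 586 and 369 to 804 CPM. The part of these markers in the Pdyn values was not tested. The chronic Pdyn estimate of 1.13 ± 0.39 (edgeR FDR = 0.445) was called when chronic ethanol replicate 4 was left out (1.51 ± 0.22; edgeR FDR = 0.0266), as was that of Oprd1 (0.64 ± 0.24 with all libraries and 0.86 ± 0.20 without; edgeR FDR = 0.462 and 0.0991). Oprk1 changed by -0.82 ± 0.64 after acute and 1.66 ± 0.88 after chronic ethanol, values that became 0.25 ± 0.53 without acute saline replicate 4 and 0.15 ± 0.78 without chronic ethanol replicate 5. Pnoc, the nociceptin precursor, was at 6.42, 8.25 and 9.93 CPM in chronic saline and at 5.75, 3.56 and 5.05 CPM in chronic ethanol mice without overlap (1 of 8 genes, beside 14.8% of all genes), with a log2 fold change of -0.78 ± 0.25 (edgeR FDR = 0.416). For the 8 comparisons without a call, the number of opioid genes at an unadjusted p below 0.05 in edgeR was 3 of 8 in vHPC chronic (beside 9.51% of all genes) and VS chronic (9.95%), 2 in dHPC acute (7.88%) and dHPC chronic (8.23%), 1 in DS chronic (4.42%) and 0 in vHPC acute (11.9%), VS acute (7.32%) and CTX chronic (10.4%), and DESeq2 called none in these but Penk in VS chronic, with no adjusted p given for Pomc in 4 of them or for Oprm1 and Oprk1 in vHPC acute. In VS after acute ethanol the estimates ran from 0.06 ± 0.25 for Oprd1 to 0.41 ± 0.63 for Pnoc, and in CTX after chronic ethanol from -0.18 ± 0.17 for Pnoc to 0.37 ± 0.66 for Oprk1.

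**Figure D3:**
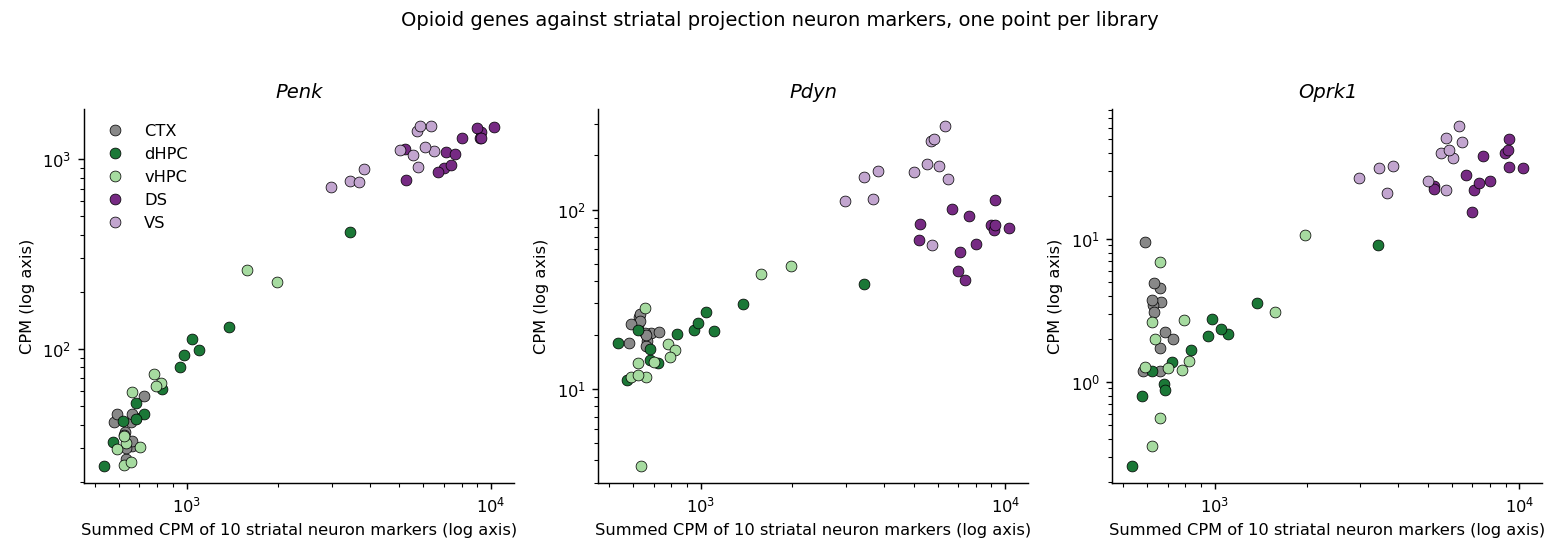
Penk, Pdyn and Oprk1 in CPM against the summed CPM of 10 striatal projection neuron markers (both axes log), each point a library and each colour a region. The dHPC and vHPC libraries lie along a rising line for Penk that reaches 415 CPM at 3437 CPM of markers, while CTX reaches at most 727 CPM of markers.

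Across the 13 dHPC libraries, Penk and the summed striatal projection neuron markers had a Pearson r of 0.98 on the log2 scale, and Oprk1 an r of 0.96. Across the 12 vHPC libraries these values were 0.93 and 0.61, and across the 12 CTX libraries 0.30 and -0.30. They were 0.78 and 0.64 across the 13 DS libraries and 0.83 and 0.60 across the 12 VS libraries. With the summed pallial excitatory markers in DS, r was -0.49 for Penk, -0.66 for Pdyn and -0.66 for Oprk1. The DS values include chronic saline replicate 2, whose marker sums leave out genes of its missing chromosomes. All of these r values are descriptions over libraries of 4 groups that share the region, the batch and in part the mice. The genes most like each opioid gene were sought over the 37 libraries of vHPC, DS and VS, among 16684 genes, by Pearson r of log2 CPM. Penk was most like Gpr6 (r = 0.994), Tac1 (0.992) and Ppp1r1b (0.992), and after the group means were taken out like Ppp1r1b (0.977), Adora2a (0.974) and Tac1 (0.957). Gpr6 and Adora2a mark indirect pathway neurons, Tac1 marks direct pathway neurons and Ppp1r1b encodes DARPP-32, found in both. For Oprk1 the nearest were Pde4b, Cntnap3 and Cpne5 (0.966, 0.966 and 0.965), and for Pdyn they were Spata13 (0.942), Smpdl3b (0.936) and Tshz1 (0.935). After the group means were taken out the nearest were Cited4 (0.786), Rcn1 (0.783) and Neu2 (0.778) for Oprk1, and Sv2c (0.774), Pde7b (0.772) and Plppr1 (0.766) for Pdyn. Oprd1 was nearest to Mgat5b (0.932), Znfx1 (0.931) and Foxo1 (0.929), and after group means to Ppp1r16b (0.863), with Arhgef2 also high (0.854). Oprl1 was nearest to Samd14 (0.916), Ptpa (0.911) and Hpcal1 (0.902), and after group means to Resp18 (0.902), Gnas (0.868) and Tmem130 (0.862). Oprm1 was nearest to Pdxk (0.906), Scg2 (0.893) and the dopamine receptor gene Drd3 (0.885), and after group means to Naa15 (0.697), Bend4 (0.666) and Gemin5 (0.660). Pnoc was nearest to Gm3558 (0.803), Adra2a (0.803) and Htr7 (0.796), and after group means to Adra2a (0.821), Trpc4 (0.811) and Sez6l (0.807). For Pomc, at low counts, the values were lowest before group means, 0.600 with Snhg20 and 0.598 with Pick1 and Dxo, and afterwards they were 0.685 with Vps37d, 0.673 with Lrrc42 and 0.623 with Nup85.

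At the level of isoforms, 61 annotated transcripts of the 8 genes passed the filter at most, and 2 comparisons called any in edgeR. In DS after acute ethanol 10 of 60 were called beside 3.59% of all isoforms, and all were higher: the 6 isoforms of Oprk1, Pdyn-201 and Pdyn-202, and both isoforms of Penk. The log2 fold changes of the Oprk1 isoforms ran from 0.76 ± 0.14 for Oprk1-204 to 1.33 ± 0.21 for the retained-intron isoform Oprk1-205 (edgeR FDR = 0.00478 and 0.00137). Pdyn-201 changed by 0.67 ± 0.12 (edgeR FDR = 0.00461) and Pdyn-202 by 0.62 ± 0.18 (edgeR FDR = 0.0853), while the retained-intron isoform Pdyn-203 did not pass (0.49 ± 0.20; edgeR FDR = 0.279). In CTX after acute ethanol 5 of 60 were called beside 1.24%: Oprk1-204 and Oprk1-206 (0.84 ± 0.16 each, on identical counts), Oprl1-205 (0.32 ± 0.08; edgeR FDR = 0.0960), and Penk-201 and Penk-202 (-0.44 ± 0.10 each). Reads were assigned to every isoform they overlapped, so isoforms of a gene share reads and are not independent. DESeq2 alone called 4 isoforms in VS after chronic ethanol, both of Penk, Pdyn-202 and Pdyn-203 (1.11 ± 0.23 and 1.21 ± 0.24), beside 1.02%, and 2 of Oprk1 in dHPC after chronic ethanol, lower, beside 0.506%.

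Pdyn has 2 windows in the RefSeq promoter table, on the minus strand of chromosome 2. Their sequence is given because Pdyn was called in DS as a gene and for the isoforms Pdyn-201 and Pdyn-202. Each line holds the 250 bases before a start site in lower case, 5′ to 3′ on the coding strand, with the base of the start site in capitals. The table is of build GRCm38.p6, and the windows were placed by exact match on GRCm39, at chr2:129541858-129542108, whose start site lies 94 bases upstream of that of Pdyn-203, and at chr2:129540578-129540828, whose start site is that of Pdyn-202. Pdyn-203 did not pass in DS. Its start site used here, 129541764, lies beyond the Pdyn end in the count matrix, 129541753, so the 2 come from different annotations.
Pdyn upstream start: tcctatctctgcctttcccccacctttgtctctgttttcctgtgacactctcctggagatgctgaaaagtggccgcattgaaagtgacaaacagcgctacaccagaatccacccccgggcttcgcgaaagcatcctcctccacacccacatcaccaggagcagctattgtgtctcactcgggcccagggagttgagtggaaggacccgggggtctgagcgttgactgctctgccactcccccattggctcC
Pdyn Pdyn-202 start: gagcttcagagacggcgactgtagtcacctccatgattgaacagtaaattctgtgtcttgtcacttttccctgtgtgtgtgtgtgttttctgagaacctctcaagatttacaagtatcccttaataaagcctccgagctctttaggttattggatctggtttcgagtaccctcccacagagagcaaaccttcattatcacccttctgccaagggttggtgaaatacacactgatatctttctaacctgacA
The core of the cyclic AMP response element, TGACG on either strand, was in neither 300-base Pdyn window (250 bases before the start site and 50 from it on) and in none of the 10 windows of the 5 opioid genes the table holds, against 20.8% of all 32851 windows. So few windows, several of them from the same gene, cannot show that opioid genes lack this element, and sequence farther upstream was not searched. Penk, Pnoc and Oprk1 had no window in the table.

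The enzymes that process and degrade opioid peptides and the machinery downstream of the receptors were followed as 2 lists of 12 and 28 genes. In DS after acute ethanol the processing list had 1 gene higher and 1 lower, and the receptor list had 2 higher and 7 lower, beside 5.15% of all genes, with medians of 0.06 and -0.11. The 3 with the lowest p were Kcnj3 (log2 fold change -0.94 ± 0.11; edgeR FDR = 0.000490) and Kcnj9 (-0.73 ± 0.10; edgeR FDR = 0.000799), subunits of the potassium channels that opioid receptors open, and Adcy1 (-0.70 ± 0.09; edgeR FDR = 0.000587), an adenylyl cyclase. In the same libraries 8 of 9 pallial excitatory markers were lower, as given above, and their part in these values was not tested. In CTX after acute ethanol the receptor list had 1 gene lower, the adenylyl cyclase Adcy8 (-0.43 ± 0.08; edgeR FDR = 0.0340), and the processing list none. Between regions the leading genes of these lists were Adcy5, Rgs9 and Rgs20 in vHPC against both striatal regions, for example 2.65 ± 0.09 for Adcy5 in DS over vHPC (edgeR FDR = 0.000374). Adcy5 and Rgs9 are also on the list of striatal projection neuron markers. Others were Ace and Mme, peptidases that can break down enkephalins, in DS against VS (lower in VS, by -1.69 ± 0.10 and -1.42 ± 0.14; edgeR FDR = 1.94e-05 and 0.000919), and Cacna1b, a calcium channel subunit, in the latter (0.39 ± 0.07; edgeR FDR = 0.00789). Cacna1a, Kcnj9 and Rgs7 led in CTX against dHPC, all lower in dHPC, by -0.90 ± 0.05, -1.38 ± 0.08 and -0.72 ± 0.05 on the log2 scale.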

How the data were processed

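RNA sequencing of 62 brain tissue libraries was analysed from the gene and isoform count matrices the authors deposited. Per the labels and the study's methods, the authors used cutadapt 5.0 for trimming, STAR 2.7.10a for alignment to GRCm39, and featureCounts 2.0.6 with 1 reverse-strand setting for all libraries, with multi-mapping and overlapping reads kept; no sample column was left unused (0). CTX and dHPC libraries were made with a non-directional kit, so that setting does not part a gene from its antisense partner there. Among deposited counts of medium size, 55.7 to 58.9% were even numbers in the CTX and dHPC batch and 70.5 to 80.1% in the other, so the values are not simple counts of independent fragments, and intervals from them would cover counting error only; totals were 8149628 to 71164766 per library.

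Counts were tested with edgeR 4.0.16 (R 4.3.3; TMM scaling, quasi-likelihood test, prior count of 0.125 for fold changes) after a filter of at least 5 counts in at least 2 libraries of a group, with Benjamini-Hochberg FDR below 0.1 over all genes as the threshold; each SE is the log2 fold change divided by the square root of F. DESeq2 1.42.0 was the alternative. Treated and saline libraries were compared within each region and paradigm, the paradigms by an interaction term, and regions within a batch in saline mice with the mouse as a block. A mouse with only 1 of the 2 regions adds nothing to such a difference. CPM used TMM factors within a region, except for likeness, where the factors were taken over the 37 libraries of vHPC, DS and VS together. In the region comparisons the same mouse gave both samples, so that block reflects the design. No pair of libraries of a group agreed within sampling noise. Likeness used log2(CPM + 0.5) and genes of at least 1 CPM on average. Replicates were separate mice.

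The 8 genes, the marker lists and the tests were chosen with earlier results of these data known. Genes named are the 8 members, their called isoforms, at most 3 genes per comparison of the 2 opioid pathway lists by p where a member also passed, and the 3 genes most like each member, of which 1 is not reported here. A fit with DESeq2 without single libraries was added after the data were seen. Alternatives were other normalization, other count filters, all groups of a region in 1 fit, replicate blocks, chromosomes complete in every DS library, and each library left out.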

Additional observations from a re-analysis of the deposited data

How the results depend on the processing

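Depth limits Pomc, Oprm1 and, in the hippocampus, Oprk1 most. Of the log2 values for single genes under the alternatives, 1955 kept their direction and side of the threshold, 37 gained a call, 42 lost one and 138 turned sign, 128 of them when 1 library was left out; the cause was not tested. Those 138 belonged to 53 combinations of gene and comparison, none of which was called with all libraries (0), and 2 were called after the turn, both for Oprk1 in CTX against dHPC without a library of chronic saline mouse 6.

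The range of the log2 values over the libraries left out, for each gene with a sign change, was as follows. In CTX acute it ran from -0.06 to 0.07 for Pomc and -0.16 to 0.09 for Oprm1. In dHPC acute it ran from -0.04 to 0.37 for Pomc, -0.14 to 0.37 for Oprm1, -0.09 to 0.07 for Oprd1 and -0.00 to 0.05 for Oprl1. In vHPC acute it ran from -0.19 to 1.57 for Penk, -0.33 to 0.09 for Pnoc, -0.02 to 0.15 for Oprd1, -1.34 to 0.25 for Oprk1 and -0.19 to 0.15 for Oprl1. In DS acute it ran from -0.07 to 0.18 for Oprl1. In VS acute it ran from -0.27 to 0.46 for Pdyn, -0.42 to 0.36 for Pomc, -0.57 to 0.93 for Pnoc, -0.05 to 0.37 for Oprm1, -0.27 to 0.29 for Oprd1 and -0.40 to 0.35 for Oprk1. In CTX chronic it ran from -0.24 to 0.14 for Oprm1 and -0.75 to 0.83 for Oprk1. In dHPC chronic it ran from -0.12 to 0.14 for Oprl1. In vHPC chronic it ran from -0.38 to 1.80 for Penk, -0.82 to 0.36 for Pomc, -0.33 to 0.27 for Oprm1 and -0.15 to 0.13 for Oprl1. In DS chronic it ran from -0.82 to 0.03 for Pomc, -0.35 to 1.01 for Pnoc and -0.29 to 0.06 for Oprl1. In VS chronic it ran from -0.05 to 0.73 for Oprm1, -0.18 to 0.38 for Oprd1 and -0.10 to 0.35 for Oprl1. In the CTX interaction it ran from -0.09 to 0.23 for Pdyn, -0.02 to 0.22 for Pnoc, -0.22 to 0.16 for Oprm1 and -0.11 to 0.10 for Oprd1. In the dHPC interaction it ran from -0.37 to 0.40 for Pdyn, -0.23 to 0.37 for Oprm1 and -0.15 to 0.11 for Oprl1. In the vHPC interaction it ran from -1.51 to 1.46 for Penk, -0.60 to 0.65 for Pdyn and -0.17 to 0.18 for Oprl1. In the DS interaction it ran from -0.15 to 0.13 for Penk, -0.48 to 0.01 for Pdyn and -0.34 to 0.01 for Oprl1. In the VS interaction it ran from -1.21 to 0.27 for Pnoc, -0.23 to 0.54 for Oprm1, -0.25 to 0.39 for Oprd1 and -0.47 to 0.07 for Oprl1. In CTX against dHPC it ran from -0.24 to 0.53 for Pdyn, -0.07 to 0.27 for Pomc and -0.45 to 0.64 for Oprk1. In vHPC against VS it ran from -0.32 to 0.24 for Pomc. In DS against VS it ran from -0.18 to 0.02 for Penk. The sign also turned with a replicate block (log2 value 0.05 for Oprm1 in CTX acute, -0.36 for Oprk1 in CTX chronic), with no replicate block (0.23 for Oprk1 in CTX against dHPC, 0.04 for Pomc in vHPC against VS), without a filter on low counts (0.00 for Oprl1 in vHPC chronic, 0.01 for Oprd1 in the CTX interaction), with DESeq2 size factors (0.00 for Oprd1 in the CTX interaction) and with DESeq2 without the doubted libraries (0.04 for Pomc in DS chronic, 0.41 for Pdyn in the dHPC interaction, 0.13 for Penk in the DS interaction).

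With all 4 groups of a region in 1 fit, 0 opioid genes were called in CTX acute and 0 in DS acute, against 2 and 3. Without a filter on low counts, 1 was called in dHPC acute, 4 in vHPC chronic, 2 in VS chronic, and 1 in the interaction of each of CTX, vHPC and VS, against 0 in each. DESeq2 called 1 in VS chronic, and 11 isoforms in CTX acute, 2 in dHPC chronic and 4 in VS chronic, against 5, 0 and 0. With at least 10 counts in every sample, 3 were called in vHPC against VS, against 5, since Oprm1, Oprk1 and Pomc were then not tested. With single libraries left out, the calls ranged from 0 to 2 in CTX acute, 0 to 1 in dHPC acute, 0 to 2 in vHPC chronic and 2 to 5 in DS against VS, and the isoform calls from 2 to 9 in CTX acute, 0 to 2 in dHPC acute, 5 to 10 in DS acute, 0 to 2 in vHPC chronic and 0 to 5 in VS chronic. Dropping the filter took the edgeR FDR of Penk in CTX acute from 0.0696 to 1.03e-07, at log2 fold changes of -0.46 and -0.47. Apart from the DESeq2 shares given above, the share of all genes or isoforms called under these settings, or without the mouse block, is not given. These counts are therefore not read as results about the opioid genes.

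Without the replicate block for the mouse, DS against VS left 1 call in place of 4. In the ethanol comparisons the replicate numbers named different mice (r from -0.331 to 0.164 between same-numbered libraries), and a replicate block gave 2 calls in CTX acute, 0 in dHPC acute and 0 in CTX chronic, changing no call. DESeq2 without DS chronic saline replicate 2 or without dHPC chronic saline replicate 5, chosen after seeing the data, called 0 opioid genes in either comparison.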
